A study of Macaca fascicularis with 64 samples.

Results

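Glucagon names the pancreatic α-cell, but a set of other genes marks it as well. A set of 8 such genes, out of the 21041 macaque genes counted, were followed here across single islet cells of cynomolgus monkeys: GC, FAP, DPP4, TM4SF4, CRYBA2, PLCE1, LOXL4 and TSPAN12. They were picked as α-cell markers with measured values of these cells already known, so their higher level in α-cells is given as a description without a test. The study compared islets of 16 healthy monkeys, of which 8 were young and 8 old and which were split evenly by sex (4 of each sex per age), and made 4 libraries per monkey from cells picked by mouth pipette. No treatment or genotype separated the groups, and each monkey counted as 1 replicate. Cells with over 800 genes and over 10000 UMIs (unique molecular identifiers, which count each captured RNA molecule once) were kept, 5908 of 6141, and each was named by the highest of its 4 hormone counts: 4503 α-cells (GCG), 1219 β-cells (INS), 112 δ-cells (SST) and 74 PP-cells (PPY).

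The α-cell secretes glucagon when glucose is low, and glucagon makes the liver release glucose. The 8 markers do not form a pathway. GC encodes the vitamin D-binding protein, which carries vitamin D metabolites and actin monomers in plasma. FAP and DPP4 are sister serine proteases of the cell surface that cut after proline, and DPP4 inactivates the incretin hormones GLP-1 and GIP. TM4SF4 and TSPAN12 are membrane proteins with 4 passes, of which TSPAN12 assists norrin signalling through the receptor FZD4. CRYBA2 is a βγ-crystallin best known from the lens, PLCE1 is the phospholipase C that Ras and Rap proteins activate, and LOXL4 is an enzyme that cross-links collagen and elastin.

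Each monkey gave between 178 and 362 α-cells and between 11 and 194 β-cells. At least 5 δ-cells were found in 11 monkeys and at least 5 PP-cells in 6, 2 young and 4 old. Median depth was 64894 UMIs per α-cell, 74425 per β-cell, 43776 per δ-cell and 45772.5 per PP-cell, and over all cells of a monkey between 20719761 and 34053080 UMIs were counted. The 96 cell barcodes were reused across libraries by design, each in 63 or 64 of the 64. Levels below are CPM, the UMIs of a gene scaled to a common total of macaque UMIs per cell, averaged first within a monkey for each cell type, with the SD over monkeys. A UMI count does not grow with transcript length, so levels of different genes are set side by side on this scale.

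Markers other than the hormones were looked up for α-, β- and δ-cells, with MAFA and HHEX given only in their own type. No such marker is given for PP-cells, so their naming rests here on PPY alone. IRX2, an α-cell transcription factor, was at 482 ± 149 CPM in α-cells (n = 16 monkeys) and at 43.3 ± 22.04 in β-cells. MAFA, a β-cell factor, was at 124 ± 63.7 CPM in β-cells, and HHEX, a δ-cell factor, at 374 ± 202 CPM in δ-cells (n = 11). Hormones were not confined to their cells, since GCG itself stood at 92552 ± 13194 CPM in α-cells and at 26594 ± 8057 in β-cells. The highest hormone had at least 4 times the UMIs of the next in 93.4% of α-cells but in 31.5% of β-cells, 35.7% of δ-cells and 10.8% of PP-cells. How far the UMIs of α-cell genes in other cells are their own was not tested.

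The 2 membrane proteins with 4 passes were the steadiest and among the most abundant of the markers. TM4SF4 was at 3121 ± 806 CPM in α-cells, ranging over monkeys from 2139 to 5203 with a median of 2930, and every one of the 4503 α-cells had a UMI of it. In β-cells it was at 473 ± 160, and in δ-cells at 732 ± 337. The α- and β-cell ranges did not touch, as the highest β-cell level was 754. PP-cells differed from the other types, with TM4SF4 at 2072 ± 536 CPM (n = 6), between 58.2% and 88.9% of the α-cell level of the same monkey. The highest PP-cell level, 3139 in old male 4, lay inside the α-cell range.

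TSPAN12 was at 804 ± 230 CPM in α-cells, from 529 to 1445 with a median of 754. It was at 72.3 ± 32.1 in β-cells, 108 ± 87.4 in δ-cells and 174 ± 82.8 in PP-cells. No monkey of another type reached the lowest α-cell level, the nearest being δ-cells of young male 3 at 340. Of the 8 markers this was the one whose α-cell range was clear of all 3 other types.

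GC and FAP were also highest in α-cells but ranged far more widely. GC was at 439 ± 274 CPM in α-cells, from 79.2 to 1214 with a median of 401, and at 50.4 ± 49.0 in β-cells, 53.9 ± 44.2 in δ-cells and 64.6 ± 18.9 in PP-cells. The ranges overlapped, since β-cells of young female 1 reached 215, although in each of the 16 monkeys the α-cells stood above the β-cells of the same animal. FAP was at 324 ± 190 CPM in α-cells, from 79.3 to 753 with a median of 300.

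FAP was at 27.5 ± 19.1 CPM in β-cells, 23.3 ± 23.0 in δ-cells and 86.7 ± 105 in PP-cells. The PP-cell mean was carried by young male 4, whose 8 PP-cells averaged 298 CPM against 22.3 to 78.0 in the other 5 monkeys. That animal's PP-cells exceeded its own α-cells, at 116% of their level.

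CRYBA2 was at 728 ± 365 CPM in α-cells, from 134 to 1565 with a median of 660. Its levels were 87.2 ± 49.6 in β-cells, 60.4 ± 39.3 in δ-cells and 213 ± 119 in PP-cells. All 16 monkeys had more in α- than in β-cells, but young male 3, with the lowest α-cell level, lay below the highest β-cell level of 220.

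The 3 scarce markers were DPP4, PLCE1 and LOXL4, for which most α-cells had no UMI. PLCE1 was at 16.4 ± 9.11 CPM in α-cells, from 4.82 to 43.2, against 1.57 ± 1.41 in β-cells, 0.805 ± 2.16 in δ-cells and 1.99 ± 3.16 in PP-cells. α-cells stood above β-cells for PLCE1 in 16 of 16 monkeys. The α- and β-cell ranges did not overlap but lay close, as the highest β-cell level was 4.30. The highest levels in δ-cells, 7.15, and in PP-cells, 7.04, lay inside the α-cell range. DPP4 was at 7.88 ± 4.78 CPM in α-cells, from 2.14 to 16.4, against 3.46 ± 2.93 in β-cells, and 2 of 16 monkeys had more in β-cells. The rest of the DPP4 counts were few, 14 UMIs in all δ-cells and 7 in all PP-cells.

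LOXL4 had its highest mean level in PP-cells. It was at 11.8 ± 4.65 CPM in α-cells, from 5.23 to 20.7, against 3.98 ± 3.31 in β-cells, 7.36 ± 17.0 in δ-cells and 16.5 ± 17.99 in PP-cells. Among the 6 monkeys with PP-cells, levels there were 0, 4.12, 7.21, 10.1, 32.8 and 44.8 CPM, from 53 UMIs in all, and 2 of them stood above their α-cells. In α-cells it was above β-cells in 15 of 16 monkeys, above δ-cells in 10 of 11 and above PP-cells in 4 of 6. The spread over monkeys in PP-cells exceeded the mean, and the order of α- and PP-cells for LOXL4 could not be set at this depth.

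**Figure D1:**
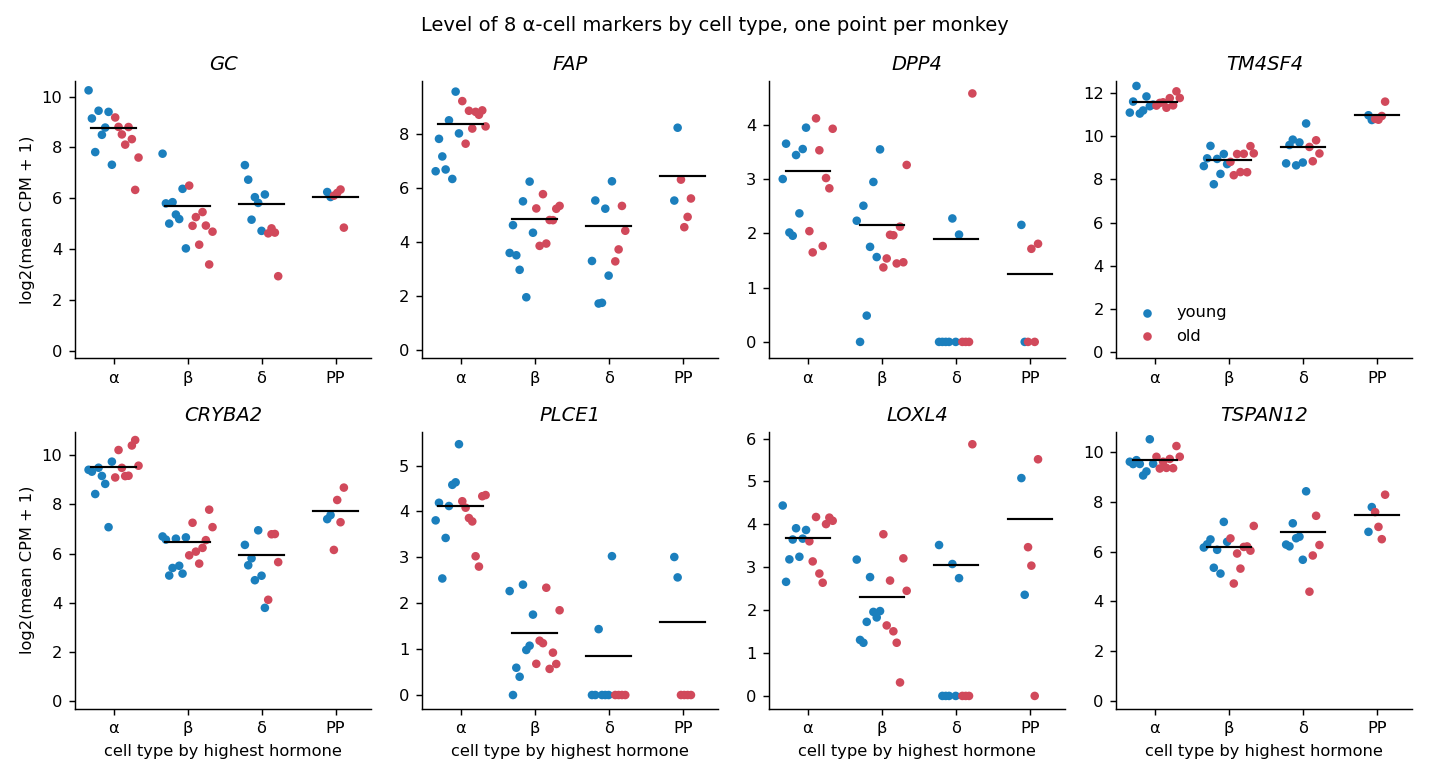
Levels of the 8 markers by cell type, as log2(mean CPM + 1) on the vertical axes, with one point per monkey with at least 5 cells of the type (blue young, red old) and a black line at log2 of the mean plus 1. The α-cell points of TSPAN12 lie above all others (lowest 529 CPM), while the PP-cells of TM4SF4 (2072 ± 536) come near the α-cells (3121 ± 806).

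Of the 8 markers, 7, all but LOXL4, had their highest mean level in α-cells. Counted by monkey, 6 (GC, FAP, TM4SF4, CRYBA2, PLCE1 and TSPAN12) were higher in α- than in β-cells in all 16, a pattern met by 7.29% of the 8546 genes with a mean of at least 10 CPM in either type (623 genes, among them 6 of the 7 markers over that minimum, which left out DPP4). The markers were chosen on this contrast, so the count adds nothing to the choice. The level in β-cells, as a share of the α-cell level, had a median over monkeys of 9.95% for GC, 7.38% for FAP, 16.2% for TM4SF4, 12.3% for CRYBA2, 7.38% for PLCE1 and 9.57% for TSPAN12. For GCG this share was 25.9%, and for TTR, a thyroid hormone carrier abundant in islets, 43.3%. Among cells whose top hormone had 4 times the UMIs of the next, GC in β-cells was at 22.9 CPM, FAP at 17.7 and TSPAN12 at 41.3 (n = 11 monkeys), and α-cell levels were 448, 333 and 827 (n = 16).

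Shares of cells with a UMI depend on how deeply the cells were counted. FAP had a UMI in 88.2% of α-cells and 63.2% of β-cells, and after each cell was thinned to 10000 UMIs (4464 α- and 1213 β-cells kept) in 67.1% and 19.3%. GC went from 89.8% and 79.4% to 70.9% and 30.4%. CRYBA2 went from 94.4% and 83.7% to 83.5% and 39.5%, and TSPAN12 from 98.7% and 88.8% to 94.96% and 37.9%. DPP4 had a UMI in 11.5% of α-cells and 7.88% of β-cells as counted, and in 4.82% and 2.14% after thinning.

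The relatives of the markers were compared between α- and β-cells without a test. Of 51 family members in the files, 34 had a higher mean level in α- than in β-cells. A mean level in α-cells over 2 times that in β-cells was found for 10 of the 51. The same was found for 23 of 29 other listed α-cell markers and 8 of 35 genes that work with the 8 markers. The shares over all genes were not computed, and some relatives, such as CRYBA4 and CRYBB1, were near 0 CPM in both types. AFP, the α-fetoprotein of the GC family, was at 307 ± 128 CPM in α-cells and 157 ± 113 in β-cells. DPP7, a lysosomal dipeptidyl peptidase, was at 229 ± 48.1 and 170 ± 46.6. CD63, a tetraspanin of lysosomes and granules, was at 1004 ± 185 and 780 ± 147. PLCB4, a phospholipase C that G proteins activate, went the other way, at 86.4 ± 27.0 CPM in α-cells and 225 ± 113 in β-cells. The highest relatives of TM4SF4, CRYBA2 and LOXL4 were low in α-cells, with TM4SF5 at 5.95 ± 4.72 CPM, CRYBA1 at 0.993 ± 0.936 and LOXL3 at 5.71 ± 4.07, all below the marker of their family.

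Partners that the markers need elsewhere were often scarce. GLP1R, the receptor of a hormone that DPP4 cuts, was at 0.06 CPM or below in α-, δ- and PP-cells and at 1.37 in β-cells. VDR, the vitamin D receptor, was at 1.71 CPM in α-cells, FZD4, the norrin receptor, at 2.61, and NDP, which encodes norrin, at 0.31. RAPGEF4, the cAMP sensor upstream of Rap and PLCE1, was at 65.0 CPM in α-cells and 89.9 in β-cells.

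Genes with the pattern most like the 8 markers were found by the Pearson correlation of log2(mean CPM + 1) with the mean standardised profile of the markers, over 49 monkey and type means of which the 4 types of a monkey share libraries. IRX2 led among 7971 genes with r = 0.95, followed by MAOB, a mitochondrial amine oxidase, at 0.89 and SEZ6L at 0.89. DTX1, ADORA2A (an adenosine receptor), COTL1, DOCK8, KHDRBS2, an unnamed gene (ENSMFAG00000046050) and ALDH1A1, which makes retinoic acid, completed the first 10, with r between 0.86 and 0.88. MAOB stood at 92.5 CPM in α-cells, 8.79 in β-cells, 6.64 in δ-cells and 18.5 in PP-cells. Within the set, TSPAN12 followed the mean of the other 7 most closely (r = 0.91) and DPP4 least (0.57).

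Among α-cells, the markers differed in how much of their spread lay between animals. The variance of log2(CPM/10 + 1) over the 4503 α-cells was split into parts between monkeys, between the 4 libraries of a monkey and among cells of a library. The part between monkeys was 25.4% for GC, 25.2% for CRYBA2, 23.8% for FAP and 18.7% for TM4SF4, against a median of 2.32% over the 7978 genes with a mean of at least 10 CPM. It was 7.12% for TSPAN12, 4.06% for PLCE1, 2.88% for LOXL4 and 2.83% for DPP4. The median covers genes of any level above the minimum of 10 CPM, and no background of like level was taken. The part between libraries was small throughout, from 2.10% for LOXL4 to 4.69% for CRYBA2 (median of all genes 2.26%). The paper reports tissue collection on sequential days, as many days as monkeys. Any difference between days is therefore part of the spread between monkeys here and cannot be told apart from it.

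**Figure D2:**
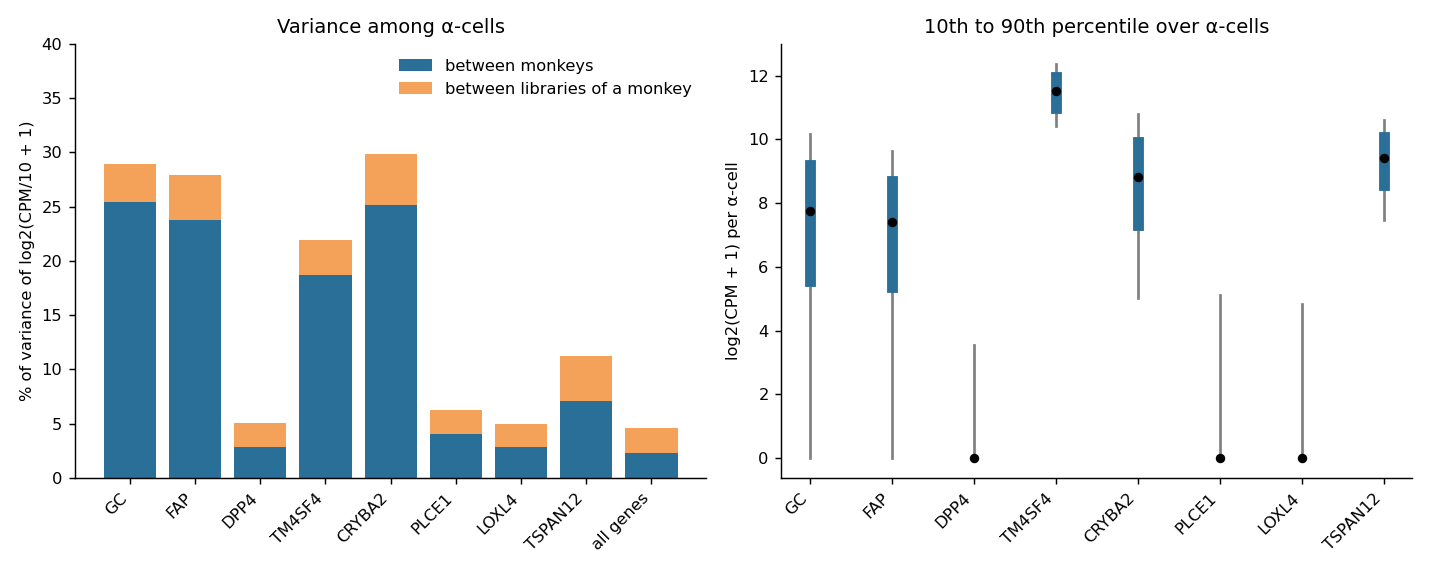
Left, percent of the variance among α-cells that lay between monkeys (blue) and between libraries of a monkey (orange), with the median of 7978 genes as the last bar. Right, log2(CPM + 1) per α-cell, with the 10th to 90th percentile as a line, the quartiles as a bar and the median as a dot. GC, CRYBA2 and FAP put 23.8% to 25.4% of their variance between monkeys, against 2.32% for the median gene (not matched for level). DPP4, PLCE1 and LOXL4 had a median of 0.

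The ratio of the highest to the lowest monkey was 15.3 for GC, 11.7 for CRYBA2 and 9.49 for FAP, and 2.43 for TM4SF4 and 2.73 for TSPAN12 (median gene 2.58). The 4 libraries of an animal gave far closer levels, with a median ratio of highest to lowest library of 1.56 for GC, 1.26 for CRYBA2 and 1.56 for FAP. Each library held 32 to 95 α-cells.

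Young female 1 had the most GC, between 1119 and 1355 CPM in its 4 libraries, and old male 3 the least, between 65.4 and 103. Old male 3 had the most CRYBA2, between 1448 and 1608, and young male 3 the least, between 107 and 153. Young male 3 had the most FAP, between 578 and 942, and young male 2 the least, between 46.0 and 108. In each of these pairs the libraries of the high and the low monkey were far apart, and the order of monkeys for one gene was not that for another.

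Among the 5 abundant markers, the ratio of the highest to the lowest library of a monkey was largest for CRYBA2 in old female 2, at 3.72. In the 70 α-cells of library 4 of old female 2, which had a median of 33421 UMIs against 63815 in its other 181 α-cells, CRYBA2 was at 459 CPM, FAP at 93.7 and PLCE1 at 0.435, against 1462, 238 and 21.9 in the others. Without that library, the CRYBA2 level of old female 2 was 1462 in place of 1182. The part of depth in this was not tested. FAP also stood at 981 CPM in library 3 of old female 1 against 405 to 573 in its other 3, and GC at 358 in library 1 of young female 3 against 175 to 188.

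**Figure D3:**
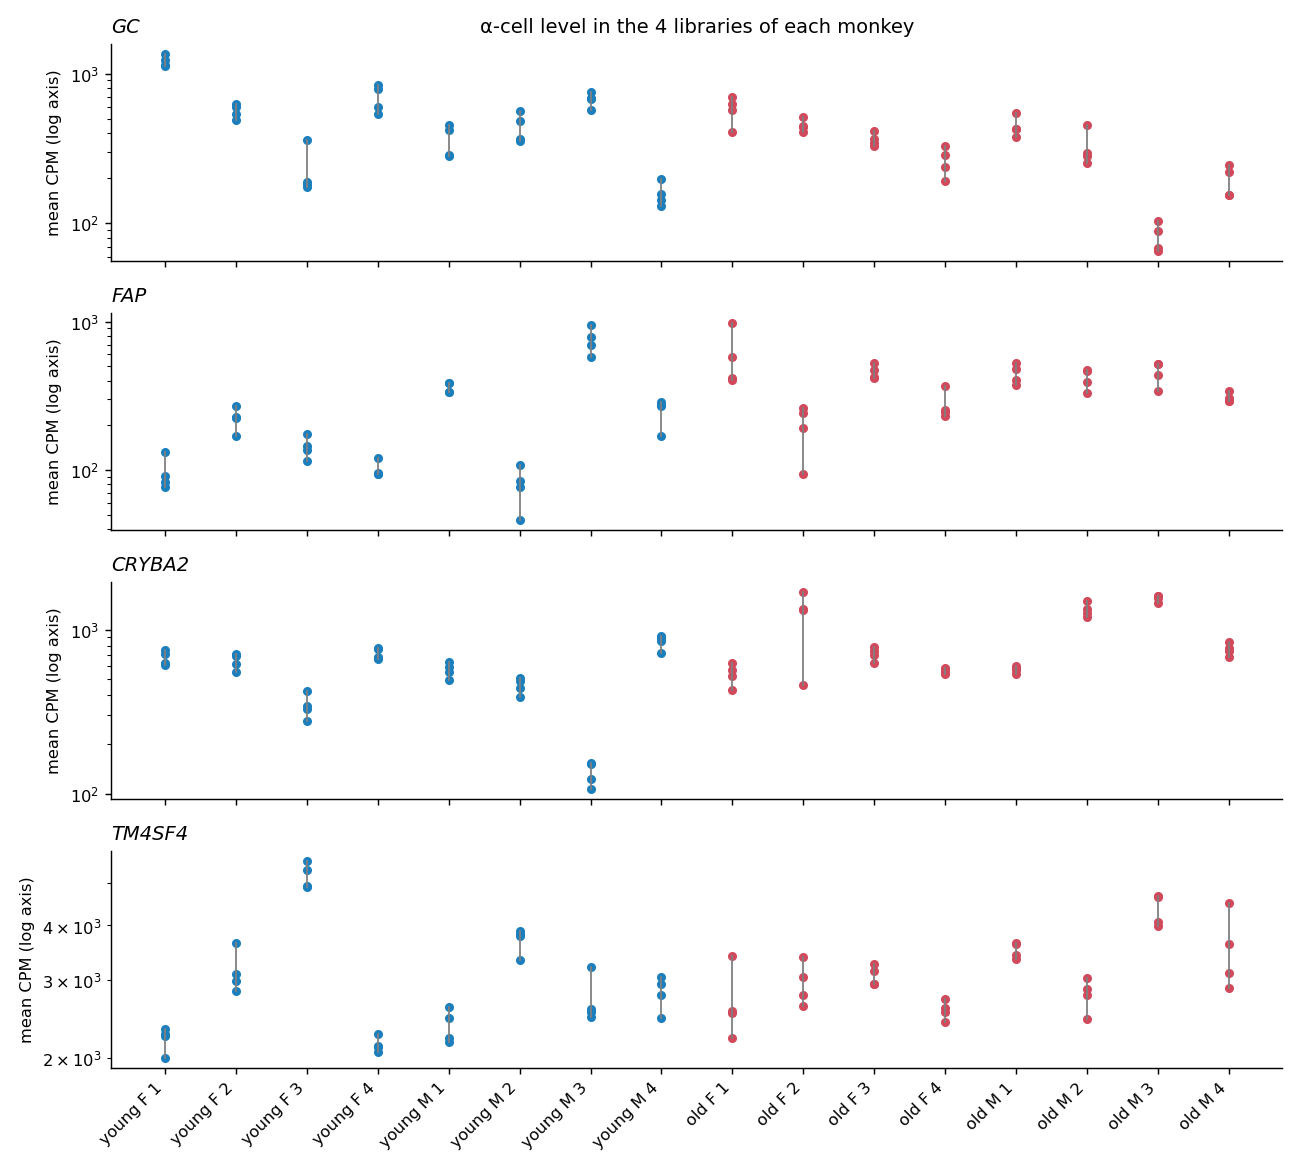
Mean CPM over α-cells (log axes) in each of the 4 libraries of every monkey, joined by a grey line, for GC, FAP, CRYBA2 and TM4SF4 (blue young, red old). Libraries of a monkey lie close together for GC, while monkeys span from 65.4 to 1355 CPM, and for CRYBA2 library 4 of old female 2 lies at 459 below its other 3.

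For GC, FAP and TM4SF4, the highest and the lowest monkey were the same in α- and β-cells. GC was highest in young female 1 and lowest in old male 3 in both types, at 215 and 9.48 CPM in β-cells. FAP was highest in young male 3 and lowest in young male 2 in both, at 74.0 and 2.87 in β-cells. TM4SF4 was highest in young female 3 and lowest in young female 4 in both, at 754 and 219 in β-cells. CRYBA2 and TSPAN12 shared only the highest monkey (old male 3 and young male 3), and DPP4, PLCE1 and LOXL4 neither. Over monkeys, β-cell GC stayed between 6.17% and 17.7% of α-cell GC while α-cell GC spanned 15.3 times. Both types of a monkey come from the same libraries, so a β-cell level of its own and RNA from α-cells cannot be told apart here.

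Within a monkey, α-cells still differed widely. The coefficient of variation over the α-cells of a monkey had a median over monkeys of 0.426 for TM4SF4, 0.657 for TSPAN12, 1.06 for CRYBA2, 1.19 for FAP and 1.27 for GC, and of 3.27 to 4.61 for the 3 scarce genes. Poisson counting left 94.4% to 97.4% of the variance of the 5 abundant markers unaccounted for, and 87.1% for the median gene. From the 10th to the 90th percentile of all α-cells, TM4SF4 went from 1375 to 5321 CPM, TSPAN12 from 177 to 1546, CRYBA2 from 31.5 to 1787, FAP from 0 to 789 and GC from 0 to 1161.

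Rank correlations between the markers from cell to cell were low. Spearman's rho between 2 markers over the α-cells of a monkey had a median over the 16 monkeys of at most 0.177, for TM4SF4 and TSPAN12 (range −0.0872 to 0.300, positive in 14), and of 0.115 for FAP and TSPAN12. For FAP and DPP4, the sister proteases, it was 0.0437, and for GC and FAP 0.0371. These cells share libraries and depth, and rho with the UMIs per cell was itself between 0.0703 and 0.159 for the 8 markers. A UMI was found in 11.5% of α-cells for DPP4, 18.3% for PLCE1 and 20.4% for LOXL4. Most ranks for these genes are therefore ties, and a low rho cannot show that they vary apart from the other markers.

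Young male 3 held 41 of the 46 α-cells with UMIs of at least 2 of the 3 inflammatory genes UBD, CCL2 and VCAM1. In these 41 cells CRYBA2 was at 133 CPM and in its other 239 α-cells at 134, so the low CRYBA2 of this monkey was found in both. FAP was at 499 and 796, and TSPAN12 at 1076 and 1509, while LOXL4 was at 31.9 and 8.24 and TM4SF4 at 2903 and 2673, with median depths of 96303 and 37800 UMIs.

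Glucagon content offered a split that the choice of markers did not use. The α-cells of each monkey were divided at their median of GCG UMIs relative to non-hormone UMIs, and the 2 groups were compared within monkeys with edgeR after the 4 hormones were removed. The GCG-high group held 2248 cells with a median of 47902 UMIs and the GCG-low group 2255 cells with 90318, so the groups also differed in depth, and rho of GCG with the UMIs per cell was −0.800 (median over monkeys). Levels are given here as CPM of UMIs other than hormones, and, except for TTR and GCG, other than TTR.

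TTR was higher in the GCG-high cells, and no call was made for the 8 markers. TTR was at 117850 ± 15739 in the GCG-high group and at 63980 ± 10959 in the GCG-low group, higher in 16 of 16 monkeys, with a log2 fold change of 0.98 ± 0.04 (SE, edgeR adjusted p = 1.9e-14). None of the 8 markers passed the threshold, against 0.237% of the 11809 genes tested (28 genes, 21 higher and 7 lower in the GCG-high group, and 935 at an unadjusted p under 0.05). TM4SF4 came nearest, at 4092 ± 1037 against 3816 ± 963, higher in 15 of 16 monkeys with young male 2 as the exception. Its log2 fold change was 0.11 ± 0.03 (SE), with p = 0.000217 and an edgeR adjusted p of 0.0765, and DESeq2 called it (adjusted p = 0.0033). The call turned on single monkeys, since edgeR also called TM4SF4 without young male 2 (adjusted p = 0.0021), young male 3 (0.0212), old female 1 (0.0422), old male 2 (0.0457) or old male 4 (0.0476), and over 22 alternatives the adjusted p ran from 0.0021 to 0.347.

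TSPAN12 was at 1068 ± 370 against 965 ± 223, higher in 13 of 16 monkeys, with a log2 fold change of 0.13 ± 0.05 (edgeR adjusted p = 0.555). GC (0.06 ± 0.06), FAP (0.07 ± 0.05) and CRYBA2 (−0.04 ± 0.05) had fold changes of under 1.5 standard errors on this scale. The scarce markers had standard errors of 0.19 to 0.27. Among the other α-cell markers tested, TTR was called. Of the relatives and partners, 0 of 35 and 0 of 19 tested were called.

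**Figure D4:**
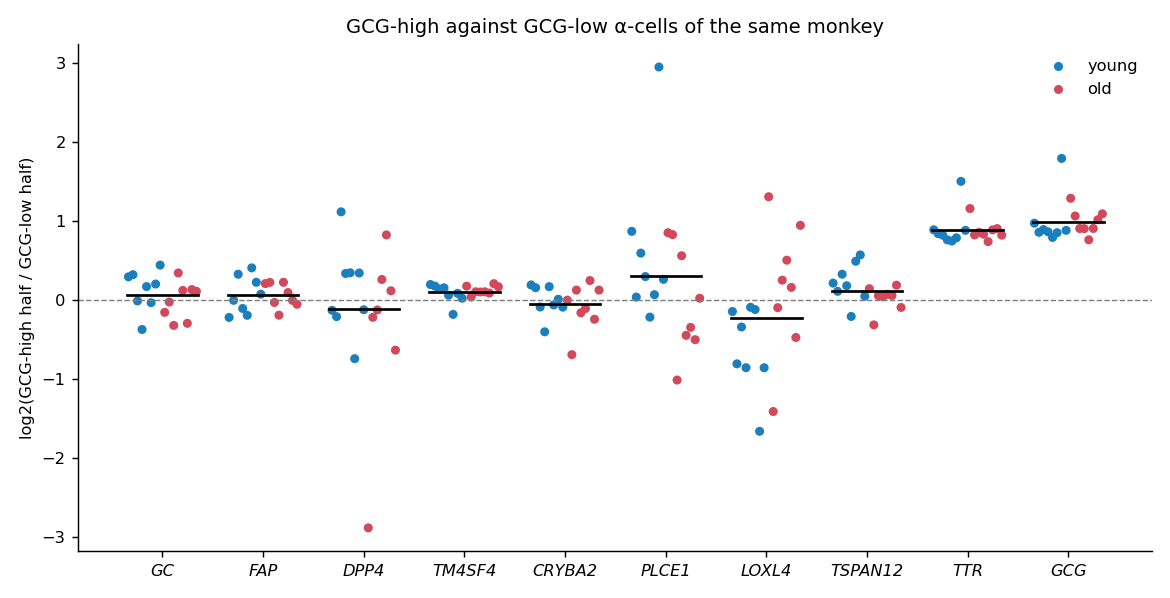
log2 ratio of the GCG-high to the GCG-low group of the α-cells, one point per monkey (blue young, red old) with the mean as a line, for the 8 markers, TTR and GCG. Pairs with a group at 0 are left out. TM4SF4 points lie in a narrow band with 15 of 16 above 0, TTR and GCG lie above 0 in all 16, and DPP4, PLCE1 and LOXL4 scatter on both sides.

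Age was the question of the study, and no marker passed the test between young and old α-cells. edgeR called 0% of the 12916 genes tested at an adjusted p under 0.05, and so 0 of the 8 markers, while 886 genes, CRYBA2 and FAP among them, had an unadjusted p under 0.05. DESeq2 called 24 genes, 18 higher and 6 lower in old α-cells, and none of the 8. The median log2 fold change of the 8 was 0.04, and of all genes −0.002.

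CRYBA2 was between 134 and 852 CPM in young α-cells, with a median of 606, and between 546 and 1565 in old α-cells, with a median of 738. The 3 highest monkeys were all old, and the 2 lowest, young male 3 and young female 3, were young, with the ranges overlapping between. The log2 fold change of old over young was 0.75 ± 0.31 (SE), with p = 0.0248 and an edgeR adjusted p of 0.705.

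FAP was between 79.3 and 753 CPM in young α-cells, with a median of 183, and between 197 and 590 in old α-cells, with a median of 432. Of the young monkeys, 4 lay below the lowest old one, but the highest level of all was that of young male 3. The log2 fold change was 0.76 ± 0.35 (SE), with p = 0.0427 and an edgeR adjusted p of 0.721, and without young male 3 it was 1.08 (p = 0.0013, edgeR adjusted p = 0.419, the lowest over 26 alternatives that reached 0.944).

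GC had the opposite sign. It was between 158 and 1214 CPM in young α-cells, with a median of 501, and between 79.2 and 578 in old α-cells, with a median of 342, with a log2 fold change of −0.61 ± 0.37 (edgeR adjusted p = 0.788). The 2 ranges overlapped.

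The steady markers gave the tightest bounds. TSPAN12 had a median of 730 CPM in young and 805 in old α-cells (log2 fold change 0.06 ± 0.16), and TM4SF4 of 2777 and 3042 (0.02 ± 0.18), with edgeR adjusted p of 0.954 and 0.993. The fold changes of PLCE1 (−0.28 ± 0.33), LOXL4 (−0.19 ± 0.29) and DPP4 (0.15 ± 0.45) were smaller than their errors. Among the other lists, 0 of 39 relatives, 0 of 22 partners and 0 of 26 other α-cell markers tested were called, with 4, 1 and 3 at an unadjusted p under 0.05.

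**Figure D5:**
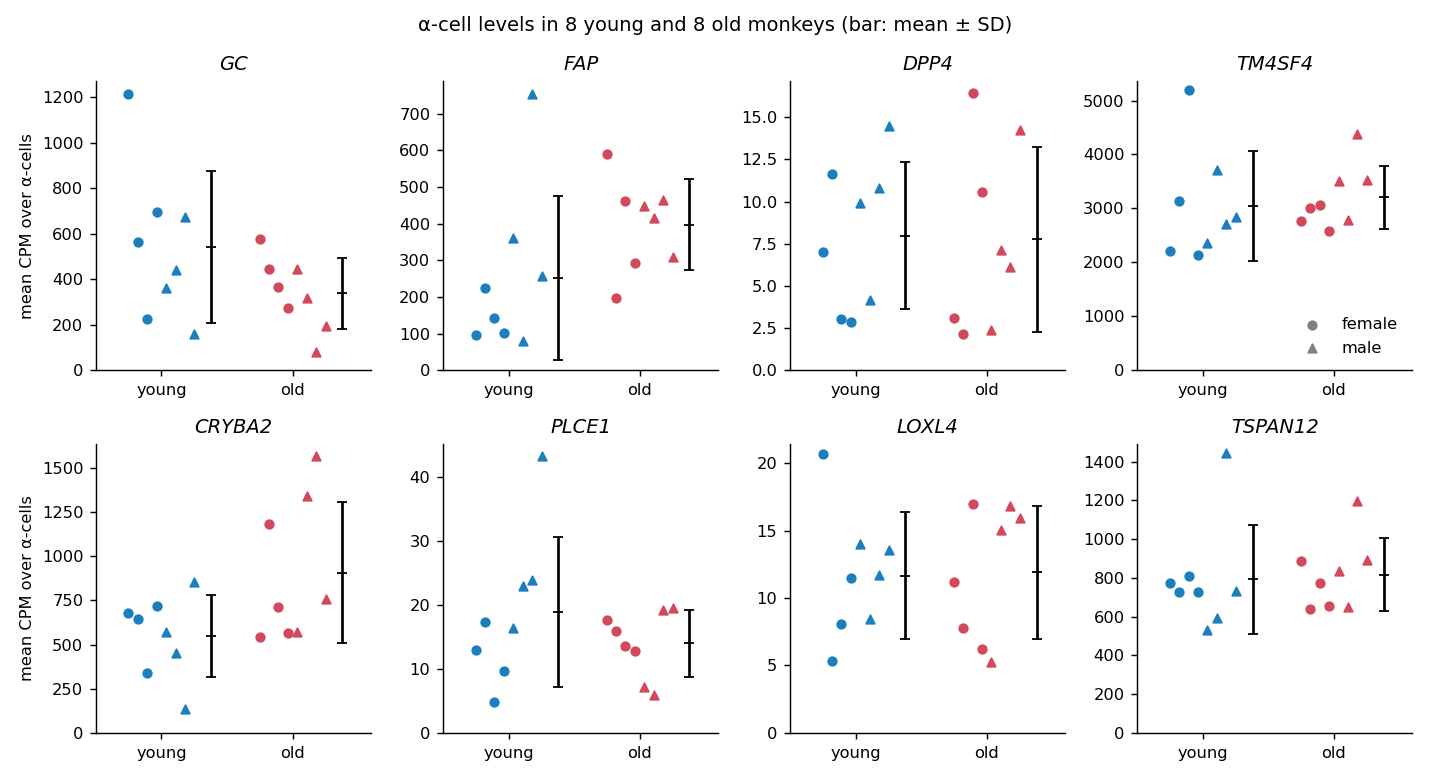
Mean CPM over the α-cells of each monkey for the 8 markers, in 8 young (blue) and 8 old (red) monkeys, circles for females and triangles for males, with the mean ± SD beside each group. Groups overlap in every panel, with CRYBA2 at 549 ± 230 in young and 906 ± 399 in old monkeys and TSPAN12 at 792 ± 280 and 816 ± 187.

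In β-cells, where these genes are low, 7 of the 8 markers passed the filter on low counts (PLCE1 did not) and 0 were called, against 0.047% of 10628 genes (5 genes, and 589 at an unadjusted p under 0.05). GC had a median of 47.2 CPM in young and 29.2 in old β-cells, with a log2 fold change of −0.97 ± 0.41 (p = 0.0276, edgeR adjusted p = 0.869). Its direction was that of the α-cells of the same monkeys. CRYBA2 was at 0.51 ± 0.35 and FAP at 0.36 ± 0.47. One listed gene was called in β-cells, SERPINA1, the α1-antitrypsin gene, higher in old monkeys (log2 fold change 1.96 ± 0.34, edgeR adjusted p = 0.0241). That call was lost without any 1 of 6 monkeys (young female 2, young males 1, 2 and 4, old female 1, old male 1), and over 21 alternatives the adjusted p ran from 1.0e-05 to 0.811. The other 4 genes called in β-cells were IGFBP4, CHGB (chromogranin B), KIF26A and, lower in old monkeys, ENSMFAG00000003105, named here after their values were seen.

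The age difference was then compared between the types with each monkey as a block. Of 13322 genes, 0% were called (806 at an unadjusted p under 0.05), and of the 8 markers 0. The difference in log2 fold change, α- minus β-cells, was 0.22 ± 0.20 for GC, 0.19 ± 0.23 for CRYBA2, 0.20 ± 0.23 for FAP and 0.03 ± 0.19 for TM4SF4. Age was not tested in δ- or PP-cells. GC was between 25.2 and 157 CPM in δ-cells of 7 young monkeys and between 6.61 and 27.1 in those of 4 old ones, which overlapped.

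Sex was balanced over age, and no marker was called for it either. edgeR called 0% of 12916 genes in α-cells (753 at an unadjusted p under 0.05, and 26 by DESeq2). FAP was higher in males on average, with a log2 fold change of male over female of 0.70 ± 0.35 (p = 0.0595, edgeR adjusted p = 0.894), and GC lower, with −0.73 ± 0.37 (p = 0.0636, adjusted p = 0.902). In young females FAP was between 96.9 and 224 CPM and in old females between 197 and 590, while in young males it was between 79.3 and 753 and in old males between 308 and 465. The test of that difference gave −1.20 ± 0.64 on the log2 scale (males minus females, p = 0.0764, edgeR adjusted p = 0.886), and PLCE1 gave −1.12 ± 0.61 (adjusted p = 0.889). In that test 0 of the 8 markers were called, against 0.00707% of 14146 genes (1 gene, CACNA1F, named after its value was seen, 793 at an unadjusted p under 0.05, and 8 by DESeq2).

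Markers of other pancreatic cells were low in α-cells at both ages. Summed levels of the 3 acinar markers in the files, of 6 listed, had a median over monkeys of 5.96 CPM in young and 1.52 in old α-cells (highest 862 in young female 2 and 67.8 in old female 2), and those of ductal markers 27.3 and 57.0. Stellate, endothelial, immune and Schwann cell markers had medians between 5.98 and 41.5 CPM, and 1 of the 6 immune markers was at 0. The part of such RNA in the levels of the 8 markers was not tested. Without the 6 α-cells in which such markers reached 1% of UMIs, GC was at 440 and TM4SF4 at 3125 CPM in α-cells.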

How the data were processed

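Single islet cells of 64 libraries from 16 monkeys were sequenced by a tagged reverse transcription method with UMIs. The authors base-called with CASAVA 1.8, aligned to the assembly Macaca_fascicularis_5.0 with TopHat2 2.0.12 (versions from the submitters' processing notes), counted uniquely mapped reads once per UMI, and deposited whole UMI counts per gene and cell. The 95 spike-in rows, 5.41% of the UMIs, were left out of all totals, and 45 retained cells then had under 10000 macaque UMIs. The deposited barcode list was used to check cell names (6141 in both). No genome of that build was used, so neither coordinates nor sequences are given.

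For the tests, UMIs were added up per gene for every monkey and type that had 5 or more cells, and the sums were fitted in edgeR 4.0.16 (R 4.3.3, filterByExpr, TMM, quasi-likelihood test, Benjamini-Hochberg adjustment over all genes tested, threshold 0.05). Age was fitted with sex, and the GCG-high and GCG-low groups and the comparison of types with the monkey as a block. DESeq2 1.42.0 was the other tool. Levels, variance and figures were computed in Python 3.11.15. Tests were run on sums per monkey, never on cells. For age, sex and age by sex, p-values measure the spread between these animals. For the GCG groups and the comparison of types, where the monkey is a block, they measure how differences within a monkey vary over the 16 animals. The edgeR fits were tested on simulated data. The depth allows no statement on fewer than about 3 UMIs in a group.

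The 8 markers, the gene lists, the relatives and the tests were chosen with earlier results of these data known. Named were the 8 markers, listed genes that a test called, for each marker's family the relative highest in α-cells, and the 10 genes most alike, with IRX2, MAFA, HHEX, GCG and a few partners added after their values were seen. Doublets were not called, and an alternative left out cells above the 95th percentile of UMIs. Other alternatives thinned cells to 10000 UMIs, changed the tool, filters and cell calls, and left out each monkey. Some genes are not reported here.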

Additional observations from a re-analysis of the deposited data

Results flagged for a closer look

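Of 54 groups of 4 to 10 monkeys (a marker, a cell type and an age group), 11 held a monkey farther from the others than Dixon's 95% limit allows. Chance alone gives about 1 in 20 such groups only where levels are normally distributed, which was not checked for these CPM means. For DPP4 and LOXL4 in old δ-cells only old male 4 had any UMI, so these groups passed the limit by construction. The groups also share monkeys and libraries. The count of 11 therefore cannot show an excess of outliers, and the monkeys are listed as a description. In young α-cells, young male 3 had FAP at 753 CPM (next monkey 360) and TSPAN12 at 1445 (next 809). In old α-cells, old male 3 had TSPAN12 at 1198 (next 890). In β-cells, young female 1 had GC at 215 (next 81.6), old female 1 had GC at 89.2 (next 42.8), and old male 4 had DPP4 at 8.61 (next 3.37).

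In δ-cells, young male 3 had TSPAN12 at 340 CPM (next 139) and PLCE1 at 7.15 (next 1.71), and old male 4 had DPP4 at 23.0 and LOXL4 at 57.4, with the other 3 old monkeys at 0 for both. In PP-cells of 4 old monkeys, old male 4 had TM4SF4 at 3139 (next 1975). The δ- and PP-cell values rest on few cells, 5 to 14 and 5 to 33 per monkey. No marker was called in the edgeR tests of whether its age difference differed between α- and β-cells or between the sexes. A missing call does not show that these age differences are equal.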

How the results depend on the processing

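No marker was called for age in α- or β-cells, for age by type, for sex or for age by sex under any alternative that was run. TM4SF4 between the GCG-high and GCG-low groups was called (edgeR adjusted p under 0.05 where not DESeq2) in 8 of 22 alternatives, among them thinned cells (log2 fold change 0.12, adjusted p = 0.049) and the outer quartiles of GCG (0.20, 0.0234), with adjusted p over all alternatives from 0.0021 to 0.347. Counts of called genes were as follows. With DESeq2, age in α-cells called 24, age in β-cells 39, sex 26, age by sex 8 and the GCG groups 80. Age in β-cells called 21 genes without a filter on low counts, 1 with thinned cells and 1 with a top hormone 4 times the next. Leaving out 1 monkey gave 2 to 8 calls for age in β-cells (2 without young male 1 or 2, 3 without young female 2 or 3 or old male 1 or 3, 8 without old male 4), 0 to 1 for age by type (1 without young female 1 or old female 1), 0 to 1 for sex (1 without young male 3) and 1 to 2 for age by sex (2 without young male 2).

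Fold changes near 0 changed sign, none of them called. For age in α-cells, DPP4 was at −0.062 with the replicate block and −0.15 with thinned cells, and in thinned cells LOXL4 was at 0.011 and TSPAN12 at −0.031. For age in β-cells, TM4SF4 was at −0.0021 with DESeq2 and TSPAN12 at 0.24 with the stricter hormone call. With that call, age by type gave −0.58 for DPP4, −0.12 for TM4SF4, −0.17 for CRYBA2 and −0.65 for PLCE1, where the median of all genes was 0.13 in place of −0.02, and the GCG groups gave −0.0022 for FAP. CRYBA2 in thinned GCG groups was at 0.019. Leaving out 1 monkey gave, for age in α-cells, −0.17 to 0.37 for DPP4, −0.041 to 0.19 for TM4SF4 and −0.0097 to 0.22 for TSPAN12. For age in β-cells it gave −0.094 to 0.16 for TM4SF4 and −0.35 to 0.023 for TSPAN12. For age by type it gave −0.028 to 0.56 for DPP4, −0.076 to 0.17 for TM4SF4 and −0.18 to 0.35 for PLCE1. For sex it gave −0.058 to 0.50 for DPP4, −0.052 to 0.24 for CRYBA2 and −0.049 to 0.18 for TSPAN12. For age by sex it gave −0.35 to 0.37 for GC, −0.40 to 0.31 for LOXL4 and −0.0032 to 0.49 for TSPAN12. The cause of these changes was not tested.

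The animal numbers are not stated to pair animals, and deviations of same-numbered monkeys had correlations from −0.67 to 0.50 (24 pairs, 10 over 0.1). With that replicate block, age called 0 genes in α-cells and 5 in β-cells, and sex 0. The log2 ratio of α- over β-cells was higher under the stricter hormone call for GC (3.12 to 4.29), FAP (3.56 to 4.23), TM4SF4 (2.72 to 3.21) and TSPAN12 (3.47 to 4.32), but the stricter β-cell means come from 11 monkeys and all others from 16. Depth limits DPP4, PLCE1 and LOXL4, and the 112 δ- and 74 PP-cells.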
